A study of Caenorhabditis elegans with 11 samples.

Results

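The genome-wide expression of *set-2* mutant embryos was compared with that of wild-type embryos in *Caenorhabditis elegans*, over all genes, using the 3 *set-2* and 3 wild-type libraries out of 11 in the series. The libraries were chosen by their genotype label. The count filter, the scaling and the spread of each gene came from 1 fit to all 11 libraries, which also held 3 *cfp-1* and 2 *sin-3* mutant libraries. The mutant embryos carried the *set-2* mutation, for which the methods of the study name the allele *bn129*, and the wild-type embryos came from the N2 Bristol strain. A balanced and an outcrossed *set-2(bn129)* strain are both described in the methods, and which of them gave the RNA is not given in the sources used here. In both groups, early-stage embryos were released from young adults with hypochlorite and frozen, and polyadenylated RNA was sequenced with a protocol that keeps the strand. Replicates are independent biological replicates according to the study, each made from many embryos.

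*set-2* encodes the methyltransferase of the SET1/COMPASS complex, which places methyl groups on lysine 4 of histone H3 around the promoters of transcribed genes. The complex also holds *cfp-1*, which binds unmethylated CpG DNA, and *wdr-5.1*, *ash-2*, *rbbp-5* and *dpy-30*, which it shares with related complexes. In the early embryo most mRNA is inherited from the mother's germline, transcription from the embryo's own genome starts within a few divisions, and the genes of differentiated tissues such as epidermis, muscle and neurons are scarcely transcribed at this time.

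The *set-2* libraries held 29780794, 25911256 and 35258557 counts and the wild-type libraries 26359923, 30845111 and 28788111 counts, in the order of replicates 1, 2 and 3, which is kept for all values below. Replicates of a strain all differed by more than counting noise, with a chi-square statistic of at least 11.4 per gene. *set-2* replicate 2 stood apart from the other libraries of its strain. On the first principal component of log2 CPM (counts as a share of the library total, scaled alike in all libraries), which carried 41% of the variance over the 11 libraries, it lay at -71.2, against -42.2 and -27.2 for *set-2* replicates 1 and 3 and -8.73 to 16.8 for wild-type. Wild-type replicate 1 lay nearest to the *set-2* libraries, and replicate 2 of *set-2* and replicate 1 of wild-type deviated from their own strains in the same direction (Pearson's r = 0.424, computed over genes and so given without a test). The mean log2 CPM of early zygotic transcription factors minus that of oocyte and maternal genes, a measure of embryo age, was -2.31, -2.27 and -2.65 in *set-2* embryos and -2.39, -2.47 and -2.76 in wild-type embryos, so the ranges overlapped. The labelled tissue was borne out by its markers. The 30 oocyte and maternal genes listed summed to between 6681 and 8091 CPM in *set-2* and between 7383 and 8909 CPM in wild-type embryos, whereas the 6 vitellogenins, the yolk genes of the adult intestine, summed to at most 3.22 CPM in any of these 6 libraries.

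The mutated gene was measured first. *set-2* (WBGene00004782, chromosome III from 4922427 to 4930204 on the reverse strand in WBcel235) had 2437, 4504 and 2499 normalized counts (counts scaled to a common library size) in the *set-2* libraries, against 9684, 7932 and 9719.7 in wild-type. All 3 mutant libraries lay below all wild-type libraries (log2 fold change -1.53, SE 0.20, quasi-likelihood adjusted p = 0.000901, where a positive log2 fold change stands for higher in *set-2*). The transcript was lowest in replicates 1 and 3, and leaving out replicate 2 gave a log2 fold change of -1.88. Counts were summed over the exons of a gene, so they do not show which part of the mutant transcript was made.

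None of the other SET1 subunits passed the test. *cfp-1* had 3988, 3137 and 4224 normalized counts in *set-2* and 3983, 4176 and 4202 in wild-type embryos (log2 fold change -0.12, SE 0.13, quasi-likelihood adjusted p = 0.535), and *wdr-5.1*, a WD-repeat scaffold, had 7373, 6805 and 7373 in *set-2* against 5872, 6527 and 6185 in wild-type (log2 fold change 0.21, SE 0.09, quasi-likelihood adjusted p = 0.119). The log2 fold changes of *ash-2*, *rbbp-5*, *dpy-30* and *swd-2.1* were -0.21, -0.17, 0.06 and -0.10, with none called. The list of other H3K4 genes held 8 members, among them *utx-1*, an H3K27 demethylase, and *pis-1*, both found with SET-16 in the study. Of the 8, 2 fell in the mutant, the demethylase genes *lsd-1* and *rbr-2*. The related demethylase genes *spr-5* and *amx-1* were not called, with log2 fold changes of -0.20 and -0.12, and 0.0083 for *amx-1* with upper-quartile scaling. *lsd-1* had 2032, 2359 and 2187 normalized counts in *set-2* and 2829, 2746 and 2967 in wild-type embryos (log2 fold change -0.38, SE 0.09, quasi-likelihood adjusted p = 0.02), and *rbr-2* had 6652, 8463 and 7675 in *set-2* and 10871, 8721 and 10866 in wild-type (log2 fold change -0.42, SE 0.13, quasi-likelihood adjusted p = 0.0453). Both calls were lost without *set-2* replicate 1, without *set-2* replicate 3 and without wild-type replicate 3, and that of *rbr-2* also without wild-type replicate 1. *set-16*, the methyltransferase of the sister complex, had 7624, 14534 and 8058 in *set-2* and 12903, 9596 and 12533 in wild-type embryos, with replicate 2 above all wild-type libraries (log2 fold change -0.21, SE 0.23, quasi-likelihood adjusted p = 0.547), and without that replicate it was called lower (log2 fold change -0.57, quasi-likelihood adjusted p = 0.0347). None of the 8 genes of the SIN3 deacetylase list was called, among them the scaffold gene *sin-3* (-0.30 ± 0.14, adjusted p = 0.157). This list is wider than the SIN3 complex that the study describes. It also holds *suds-3*, whose protein was missing from the proteomics of the study.

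Of 11547 protein-coding genes tested, 1668 (14.4%) passed an adjusted p of 0.05 in the quasi-likelihood test of edgeR (p-values adjusted by Benjamini-Hochberg), with 855 (7.4%) higher and 813 (7.04%) lower in *set-2* embryos. The genes that rose were mostly genes of low level that changed by a large factor. Their median log2 fold change was 1.47, and 656 (5.68% of all genes tested) were at least 2-fold higher, 217 at least 4-fold and 53 at least 8-fold. Their median level was 74.7 normalized counts in *set-2* and 24.6 in wild-type embryos. The genes that fell were mostly abundant and changed little: their median log2 fold change was -0.60, only 212 (1.84% of all tested) were at least 2-fold lower and 388 changed by less than 1.5-fold. Their median level was 1342 in *set-2* and 1980 normalized counts in wild-type embryos, and together they held 94901 CPM in *set-2* against 138838 CPM in wild-type. The 855 genes that rose held 14875 CPM in *set-2* against 9193 CPM in wild-type. Over all genes tested the median log2 fold change was -0.02.

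The number of calls depended on the libraries and on the scaling. It was 500 higher and 346 lower without *set-2* replicate 1, 467 and 478 without wild-type replicate 2 and 337 and 323 without wild-type replicate 3. Without *set-2* replicate 2, 661 genes were higher and 1023 lower, and 577 of the 855 and 636 of the 813 were still called. No gene called in the comparison of all libraries changed sign in any of these fits that gave it a value. In a fit to only the *set-2* and wild-type libraries 668 genes were higher and 525 lower. Of the 855 and 813, 594 and 486 were still called there. DESeq2 called 976 (8.45%) higher and 1229 (10.6%) lower. With upper-quartile scaling the split was 1225 higher against 445 lower, in place of 855 against 813, and this scaling moved the median log2 fold change of all genes to 0.11.

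**Figure D1:**
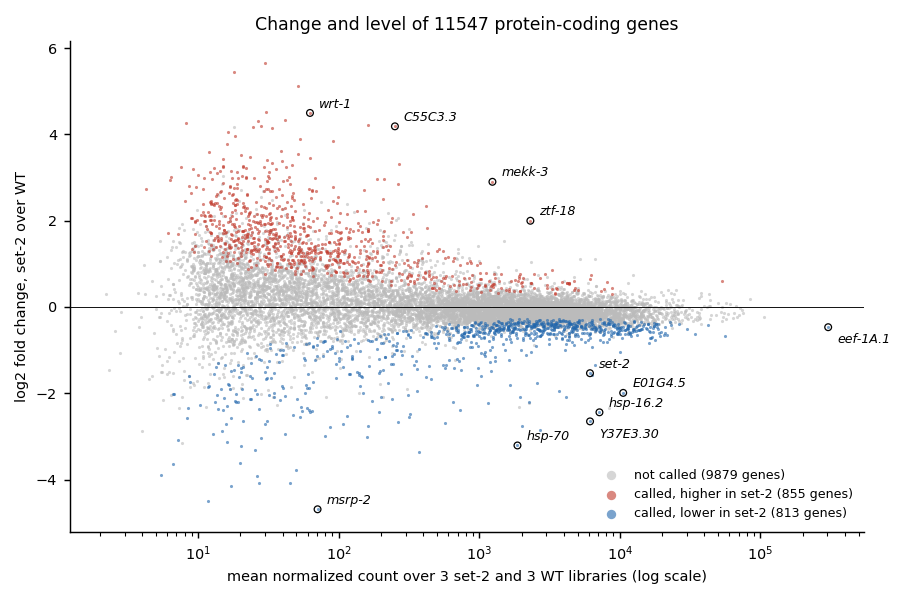
Each point is a protein-coding gene, placed by its mean normalized count over the 3 *set-2* and 3 wild-type libraries (log axis) and its log2 fold change of *set-2* over wild-type. The 855 genes called higher lie mostly at low counts and reach large changes, and many of the 813 called lower form a band of abundant genes just under 0.

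The share of called genes was read across 5 equal groups of genes ordered by level. In the lowest group, 381 of 2310 genes (16.5%) were higher and 90 (3.9%) were lower in *set-2*, and in the second group 14.2% were higher and 4.85% lower. In the highest group, 22 genes (0.952%) were higher and 262 (11.3%) were lower. The median log2 fold change moved in the same way, with 0.46 in the lowest, 0.23 in the second, -0.03 in the third, -0.09 in the next and -0.14 in the highest group. Of the genes tested, 220 averaged more than 10 normalized counts only through the *set-2* libraries, as their mean over the other 8 libraries was 10 or less. To be tested, these genes had to be higher in *set-2* than the mean of the other libraries, and 89 of the 855 genes that rose were among them.

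Among the genes that rose, *mekk-3* gave the smallest p, and it is named for the MAP kinase kinase kinase family. *mekk-3* (WBGene00013694, chromosome I from 9936125 to 9938301) had 2279, 2098 and 2187 normalized counts in *set-2*, against 338, 248 and 292 in wild-type (log2 fold change 2.90, SE 0.13, quasi-likelihood adjusted p = 1.48e-07). The groups were far apart and the 3 *set-2* libraries lay close to each other. C55C3.3 (WBGene00016953, chromosome IV from 5685287 to 5688273) had 539.9, 365 and 524 in *set-2* and 20.4, 29.4 and 28.1 in wild-type (log2 fold change 4.19, SE 0.23, quasi-likelihood adjusted p = 1.43e-06), and here replicate 2 was the lowest of the mutant libraries. *ztf-18*, a zinc finger gene, had 3563, 3561 and 3957 in *set-2* and 1058, 814 and 900.3 in wild-type (log2 fold change 2.00, SE 0.11, quasi-likelihood adjusted p = 1.27e-06). *klf-1*, a Krüppel-like transcription factor, had 133, 159 and 186 in *set-2* and 22.5, 24.6 and 21.9 in wild-type (log2 fold change 2.78, SE 0.24, quasi-likelihood adjusted p = 4.12e-05). *sfxn-1.5*, of the sideroflexin family of mitochondrial transporters, had 721, 770.3 and 741 in *set-2* against 287, 292 and 295 in wild-type (log2 fold change 1.35, SE 0.10, quasi-likelihood adjusted p = 1.69e-05). In these 5 genes every mutant library stood above every wild-type library, and the calls of all 5 held with any single library left out.

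**Figure D2:**
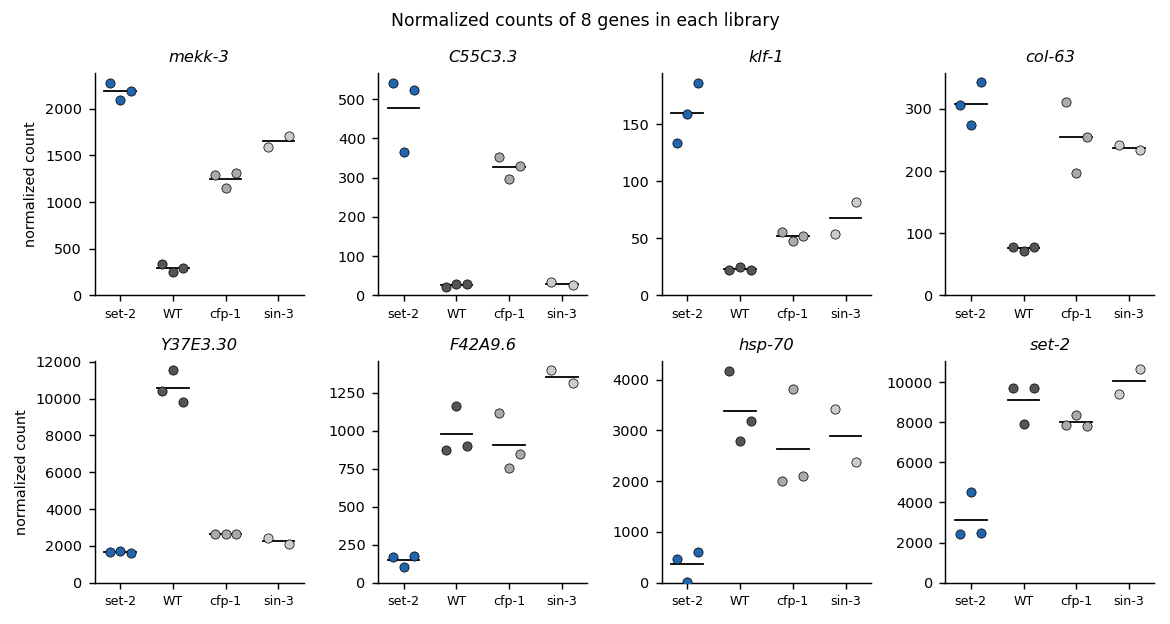
Normalized counts of 8 genes in each library, with *set-2* left of wild-type and the other mutants of the series after them. Points are libraries in the order of replicates and the lines are means. *mekk-3*, C55C3.3, *klf-1* and *col-63* were higher in all 3 *set-2* libraries than in any wild-type library, and Y37E3.30, F42A9.6, *hsp-70* and *set-2* were lower.

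The genes with the largest increases were mostly those in which *set-2* replicate 2 stood highest. *wrt-1*, a member of the warthog family of hedgehog-related secreted proteins, had 65.2, 257 and 36.3 normalized counts in *set-2* and 10.7, 2.84 and 2.08 in wild-type (log2 fold change 4.499, SE 0.85, quasi-likelihood adjusted p = 0.00631). *lpr-4*, which encodes a lipocalin-related protein, had 235.2, 569.6 and 114 in *set-2* against 42.8, 4.74 and 2.08 in wild-type (log2 fold change 4.22, SE 0.93, quasi-likelihood adjusted p = 0.012). *far-1*, for a secreted protein that binds fatty acids and retinol, had 328, 943 and 186 in *set-2* against 102, 26.5 and 18.8 in wild-type (log2 fold change 3.31, SE 0.75, quasi-likelihood adjusted p = 0.0138). *glf-1*, which encodes UDP-galactopyranose mutase, had 163, 274 and 73.4 in *set-2* and 19.3, 10.4 and 5.21 in wild-type (log2 fold change 3.86, SE 0.64, quasi-likelihood adjusted p = 0.00321). Each of these had its highest mutant value in replicate 2 and its highest wild-type value in replicate 1, and the calls of *lpr-4* and *far-1* were lost without wild-type replicate 2 or 3. F41F3.3, R02F11.1, C35A5.11 and K08B12.1, which have no name in the annotation, followed this order with log2 fold changes of 5.11, 3.90, 3.54 and 3.45. Without wild-type replicate 2 or 3 the first 3 of them were not called, and C35A5.11 also not without *set-2* replicate 1 or 2. *txt-4* was even across the mutant libraries, with 118, 126.1 and 116 in *set-2* and 12.9, 24.6 and 7.29 in wild-type (log2 fold change 2.98, SE 0.37, quasi-likelihood adjusted p = 0.000648). Over the 855 genes that rose, *set-2* replicate 2 was the highest mutant library for 549 (64.2%), and wild-type replicate 1 the highest wild-type library for 421 (49.2%). Over the 9879 genes not called these shares were 42.8% and 37.5%.

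Several of the abundant transcripts with the largest increase in CPM rose by less than 2-fold. *ttr-50*, of the transthyretin-related family, had 60179, 72548 and 59457 normalized counts in *set-2* and 40244, 44117 and 41202 in wild-type (log2 fold change 0.61, SE 0.14, quasi-likelihood adjusted p = 0.016), which was not called without wild-type replicate 3. *hil-5*, a linker histone, had 9500.4, 9038 and 10473 in *set-2* and 5312, 7128 and 7095 in wild-type (log2 fold change 0.57, SE 0.12, quasi-likelihood adjusted p = 0.00966). *cyn-6*, which encodes a cyclophilin, had 8227, 8672 and 6703 in *set-2* against 4253, 5207 and 4542 in wild-type (log2 fold change 0.75, SE 0.15, quasi-likelihood adjusted p = 0.00751). For *cey-2*, a germline Y-box protein that binds mRNA, the values were 9415, 10383 and 10495 in *set-2* and 7040.4, 7645 and 7543 in wild-type (log2 fold change 0.45, SE 0.12, quasi-likelihood adjusted p = 0.0311). The *cey-2* call was lost without *set-2* replicate 3 and without any 1 of the wild-type libraries.

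Among the genes that fell, Y37E3.30 gave the smallest p of all genes tested. Y37E3.30 (WBGene00235158, chromosome I from 2149825 to 2151826) had 1681, 1735 and 1638 normalized counts in *set-2* embryos, against 10411, 11567 and 9791 in wild-type (log2 fold change -2.65, SE 0.10, quasi-likelihood adjusted p = 4.82e-08). The 3 mutant libraries differed from each other by little and lay far under the lowest wild-type value. E01G4.5 had 4290.1, 4383 and 4064 in *set-2* and 14780.2, 18782 and 17069 in wild-type (log2 fold change -1.99, SE 0.12, quasi-likelihood adjusted p = 3.09e-06). Y116F11A.1 had 845, 761 and 809 in *set-2* against 3511, 4041 and 3626 in wild-type (log2 fold change -2.21, SE 0.14, quasi-likelihood adjusted p = 3.35e-06). *clp-7*, of the calpain protease family, had 484, 519 and 522 in *set-2* and 1491, 1454 and 1664 in wild-type (log2 fold change -1.60, SE 0.10, quasi-likelihood adjusted p = 3.35e-06). *lmtr-5*, named for a subunit of the lysosomal Ragulator complex, had 567, 518 and 517 in *set-2* and 1257, 1685 and 1347 in wild-type (log2 fold change -1.42, SE 0.12, quasi-likelihood adjusted p = 3.02e-05). F42A9.6, which has no name in the annotation, had 167, 105 and 179 in *set-2* against 877, 1164 and 903 in wild-type (log2 fold change -2.70, SE 0.21, quasi-likelihood adjusted p = 2.04e-05). These decreases were alike in all 3 mutant libraries, replicate 2 included, and none of the 6 calls was lost with a single library left out.

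In another set of genes the decrease was deepest in *set-2* replicate 2. *acs-15*, of the acyl-CoA synthetase family, had 46.4, 3.15 and 53.8 normalized counts in *set-2* and 352, 229 and 272 in wild-type (log2 fold change -3.004, SE 0.54, quasi-likelihood adjusted p = 0.00499). Y43F8B.1 had 24.9, 3.15 and 35.6 in *set-2* against 162, 127 and 167 in wild-type (log2 fold change -2.78, SE 0.50, quasi-likelihood adjusted p = 0.00509), and M05D6.1 had 24.9, 2.1 and 25 in *set-2* against 217, 81.5 and 129 in wild-type (log2 fold change -2.98, SE 0.53, quasi-likelihood adjusted p = 0.00476). R13D11.4 and *ins-30*, an insulin-like peptide, had log2 fold changes of -2.77 and -2.71, and the *ins-30* call was lost without *set-2* replicate 1 or wild-type replicate 3. In all 5 genes replicate 2 was the lowest of the mutant libraries. Over the 813 genes that fell, replicate 2 was the lowest mutant library for 399 (49.1%), near the 42.8% of the 9879 genes not called.

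More heat-shock genes fell than rose, and their level differed sharply between the mutant libraries. Of the 14 tested, 7 (50%) were lower and 2 (14.3%) higher in *set-2*, where 7.04% and 7.4% of all genes tested were. Their median log2 fold change was -0.84 against -0.02 over all genes. *hsp-16.2*, a small heat-shock protein induced by heat stress, had 3285, 148 and 3235 normalized counts in *set-2* and 14489, 10574 and 11229.6 in wild-type (log2 fold change -2.44, SE 0.72, quasi-likelihood adjusted p = 0.0423). *hsp-70*, an inducible chaperone of the HSP70 class, had 466, 18.9 and 597 in *set-2* and 4168, 2786 and 3177 in wild-type (log2 fold change -3.21, SE 0.69, quasi-likelihood adjusted p = 0.0108). In both genes all mutant libraries lay under all wild-type libraries, and *set-2* replicate 2 lay more than 10-fold under replicates 1 and 3. The *hsp-16.2* call was lost without *set-2* replicate 1, without *set-2* replicate 3 and without any 1 wild-type library. *hsp-16.41*, F44E5.4 and F44E5.5 had the same pattern without passing the test, with log2 fold changes of -2.35, -2.31 and -2.22. *hsp-16* genes and the pair F44E5.4 and F44E5.5 have near-identical copies between which reads can be split, so single values in these families are uncertain.

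Several chaperones that every cell uses also fell, and here replicate 2 did not lie far under the other mutant libraries. *hsp-110*, a nucleotide exchange partner of the HSP70 class, had 3508, 4053 and 3794 normalized counts in *set-2* and 13251, 6061 and 9597 in wild-type (log2 fold change -1.35, SE 0.28, quasi-likelihood adjusted p = 0.00997). *hsp-90*, the cytosolic chaperone of kinases and receptors, had 46082, 39414 and 43576 in *set-2* and 74708, 62204 and 67308 in wild-type (log2 fold change -0.66, SE 0.12, quasi-likelihood adjusted p = 0.00565). *hsp-1*, the constitutive cytosolic member of the HSP70 class, and *hsp-60*, the mitochondrial chaperonin, had log2 fold changes of -0.77 and -0.91, both called, but neither without *set-2* replicate 1. Of the chaperones of the endoplasmic reticulum, *hsp-4* was lower (-0.45 ± 0.12, adjusted p = 0.0265), which held without *set-2* replicate 2 and was lost without any other single library, and *hsp-3* was not called (-0.25 ± 0.14, adjusted p = 0.254). The 2 members that rose were *hsp-12.1* and *hsp-12.2*, small heat-shock proteins, with log2 fold changes of 1.73 and 2.25. The list summed to 4934, 5499 and 4994 CPM in *set-2* and to 9114, 7393 and 8305 CPM in wild-type embryos. The count of members lower in the mutant was 3 without *set-2* replicate 1 and 12 without *set-2* replicate 2, and the 2 higher calls were lost without *set-2* replicate 1 or 2 and without wild-type replicate 2 or 3.

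Genes of the cytoplasmic ribosome fell together by a moderate factor. Of 79 ribosomal protein genes tested, 66 (83.5%) were lower and none was higher, where 7.04% and 7.4% of all genes tested were. All but 1 had a negative log2 fold change, with a median of -0.52. *rpl-33* had 5219, 5558 and 5355 normalized counts in *set-2* and 8513, 9606 and 9140.4 in wild-type (log2 fold change -0.76, SE 0.09, quasi-likelihood adjusted p = 0.000403). *rps-7* had 11781, 13587 and 11862 in *set-2* and 19634, 19833 and 21471 in wild-type (log2 fold change -0.71, SE 0.09, quasi-likelihood adjusted p = 0.00088), and *rpl-28* had 3233, 3241 and 3425 in *set-2* against 5221, 6029 and 6138 in wild-type (log2 fold change -0.81, SE 0.09, quasi-likelihood adjusted p = 0.000413). *ubl-1*, which fuses a ubiquitin-like domain to a ribosomal protein, changed by -0.62 on the log2 scale. Replicates were close to each other in these genes, and for 73 of the 79 genes the mutant libraries lay under all wild-type libraries, where 19.1% of all genes tested did so. The list summed to 22489, 23224 and 21696 CPM in *set-2*, against 29726, 34285 and 31841 CPM in wild-type. The exception *rpl-41.1* had a log2 fold change of 0.12 and was not called. With a single library left out between 44 and 67 members were called lower, the lowest count without *set-2* replicate 1 (and 45 without wild-type replicate 2), and with upper-quartile scaling 50 were.

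Other parts of the translation machinery did not fall to the same extent. Of 69 translation factors and tRNA synthetases, 3 were higher and 4 lower (median -0.07). Among them *eif-3.D* of initiation factor 3 rose (0.56 ± 0.12, adjusted p = 0.0105), and *ife-5*, a germline form of the cap-binding protein, fell (-1.01 ± 0.18, adjusted p = 0.00485). *eef-1A.1*, the elongation factor that brings aminoacyl-tRNA to the ribosome and one of the most abundant transcripts, had 224978, 286600.0 and 252136 normalized counts in *set-2* and 282869, 380761 and 393053 in wild-type (log2 fold change -0.47, SE 0.13, quasi-likelihood adjusted p = 0.0357). Its values overlapped between the groups, and the call was lost without *set-2* replicate 1 or 3 and without wild-type replicate 2 or 3. The 4 lower calls of this list became 1 without *set-2* replicate 1 and 1 without wild-type replicate 2 or 3, and 2 without *set-2* replicate 3 or wild-type replicate 1. Of 65 mitochondrial ribosomal proteins, 1 was higher and 1 lower (median 0.01), the lower call being lost with any single library left out. Proteasome subunits (31 tested, median -0.18) and the MCM helicase and replication licensing genes (17 tested, median -0.18) had no call in either direction.

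**Figure D3:**
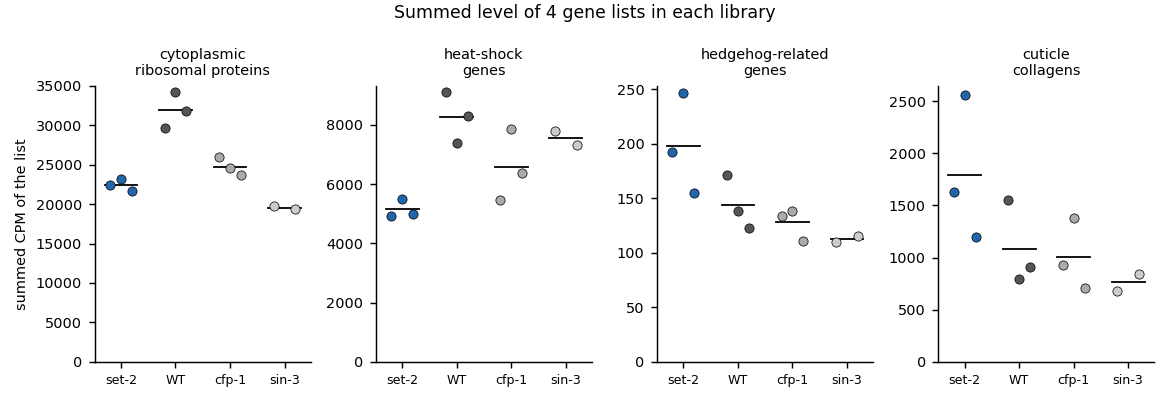
Summed CPM of all members of 4 gene lists in each library, with *set-2* left of wild-type and the other mutants after them. Points are libraries and lines are means. Ribosomal protein genes summed to between 21696 and 23224 CPM in *set-2*, against 29726 to 34285 CPM in wild-type, and heat-shock genes were lower in all *set-2* libraries, while hedgehog-related genes and cuticle collagens overlapped between the groups and peaked in *set-2* replicate 2.

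Several lists of genes of differentiated tissues had more members higher than lower in *set-2*. Most of their members, sarcomere genes apart, lay in the 2 lowest groups of level, where 15.4% of all genes tested were higher and 4.37% lower. Of cuticle collagens 14.3% were higher and 5.36% lower, and of immune effectors 15.8% and 5.26%, which is close to those shares. Of hedgehog-related genes 50% were higher, of chemoreceptors 22.4%, and of the joint list of touch and ciliated neuron genes 43.8%, with only cilium genes called. In pooled embryos, more cells of a type and more RNA per cell cannot be told apart. Hedgehog-related genes encode secreted proteins that in *C. elegans* act mainly in the epidermis and its cuticle, and 11 of 22 tested were higher and none lower, with a median log2 fold change of 1.16. Of the 11, *grd-16*, *grl-15* and *wrt-2* passed the count filter only through the *set-2* libraries, which favours a call in this direction, and the other 19 members tested had 8 higher and a median of 0.76. *grd-5*, of the groundhog family, had 111, 133 and 92.4 normalized counts in *set-2* and 33.2, 34.1 and 30.2 in wild-type (log2 fold change 1.78, SE 0.26, quasi-likelihood adjusted p = 0.00159). *grl-20*, of the ground-like family, had 40.3, 67.3 and 55.3 in *set-2* and 17.1, 16.1 and 17.7 in wild-type (log2 fold change 1.67, SE 0.26, quasi-likelihood adjusted p = 0.0026), and *hog-1* had 30.9, 53.6 and 26.5 in *set-2* against 5.36, 9.48 and 7.29 in wild-type (log2 fold change 2.28, SE 0.40, quasi-likelihood adjusted p = 0.00407). Levels were low, and in these 3 genes every mutant library was above every wild-type library. *wrt-5* and *wrt-10*, the members with the most counts, were not called (-0.09 ± 0.17, adjusted p = 0.753 and 0.41 ± 0.20, adjusted p = 0.176). The 11 calls became 5 without *set-2* replicate 2, 7 without *set-2* replicate 1, and 5 without wild-type replicate 2 or without wild-type replicate 3.

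In the joint list of touch neuron and ciliated sensory neuron genes, 7 of 16 were higher and none lower, with a median of 1.13, or 0.68 without *set-2* replicate 2. The 7 were all genes of cilia, and no touch neuron gene tested was called. Other genes of ciliated neurons were not called, among them *osm-3*, *osm-1* and *dyf-1*, with log2 fold changes of -0.12, 0.41 and 0.73. *dyf-7* was not called either, with 446, 726 and 285 normalized counts in *set-2* and 316, 92.9 and 106 in wild-type. *bbs-1*, *che-11* and *che-2* passed the count filter only through the *set-2* libraries, and the other 13 members tested had 4 higher and a median of 0.78. *che-11*, of the intraflagellar transport machinery, had 30.9, 35.7 and 15.9 normalized counts in *set-2* and 3.21, 1.9 and 3.13 in wild-type. With 3, 2 and 3 raw counts in wild-type it was at least 8.99-fold higher in the mutant, a lower bound against 3 counts per library (quasi-likelihood adjusted p = 0.00321). *osm-5* and *che-2*, which encode further transport proteins of that machinery, had log2 fold changes of 2.27 and 2.32, and *che-3*, its dynein motor, had 71.2, 133 and 75 in *set-2* against 43.9, 39.8 and 42.7 in wild-type (log2 fold change 1.14, SE 0.30, quasi-likelihood adjusted p = 0.0259). The touch neuron genes *mec-4* and *mec-7* were not called (-0.07 ± 0.48, adjusted p = 0.939 and 0.43 ± 0.25, adjusted p = 0.268), nor was *daf-19*, the factor that switches on cilium genes (0.02 ± 0.13, adjusted p = 0.937). The other touch neuron genes tested had log2 fold changes of 0.78 and 1.97 and were not called either. Without *set-2* replicate 2 only *osm-5* was called, and *che-11* fell below the filter there and without *set-2* replicate 1, where 2 members were called. Without wild-type replicate 2, and likewise without wild-type replicate 3, 1 member was called, which was *che-11*.

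Muscle genes were called less evenly. Of 27 sarcomere genes, 3 were higher and none lower (median 1.05). This median was 0.35 without *set-2* replicate 2 and 1.71 without wild-type replicate 1. *unc-54*, the major body-wall myosin heavy chain, had 358, 1198 and 363 normalized counts in *set-2*, against 588, 146 and 243 in wild-type (log2 fold change 0.97, SE 0.59, quasi-likelihood adjusted p = 0.279). *unc-15*, paramyosin, had 198, 589.6 and 169.6 in *set-2* and 202, 33.2 and 50 in wild-type (log2 fold change 1.75, SE 0.68, quasi-likelihood adjusted p = 0.102). In both genes replicate 2 of *set-2* and replicate 1 of wild-type were the highest of their strains, and wild-type replicate 1 lay inside the mutant range. *tni-3*, a troponin I gene that passed the count filter only through the *set-2* libraries, was low and separate, with 16.3, 20 and 17.4 in *set-2* and 5.36, 1.9 and 4.17 in wild-type (log2 fold change 2.21, SE 0.41, quasi-likelihood adjusted p = 0.00539). The count depended on single libraries, and 10 members were called without wild-type replicate 1, 1 higher and 1 lower without *set-2* replicate 2, and 1 each without wild-type replicate 2 and without wild-type replicate 3.

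Of 56 cuticle collagens, 8 were higher and 3 lower (median 0.34, or 0.20 without *set-2* replicate 2). Of the 8, *col-165* passed the count filter only through the *set-2* libraries. The 53 members that passed it in the other libraries had 7 higher and a median of 0.226. *col-63* had 306, 274 and 344 normalized counts in *set-2* and 78.2, 71.1 and 78.1 in wild-type (log2 fold change 2.02, SE 0.19, quasi-likelihood adjusted p = 9.95e-05). *col-155* had 137, 147 and 161 in *set-2* against 47.1, 51.2 and 53.1 in wild-type (log2 fold change 1.55, SE 0.18, quasi-likelihood adjusted p = 0.000376). Both were even across replicates, in contrast to the list as a whole, which summed to 1629, 2556 and 1200 CPM in *set-2* and 1550, 799 and 911 CPM in wild-type embryos. *col-97* moved the other way, with 66.1, 38.9 and 80.3 in *set-2* and 277, 214 and 358 in wild-type (log2 fold change -2.18, SE 0.32, quasi-likelihood adjusted p = 0.0016), as did *col-138* (-2.11 ± 0.36, adjusted p = 0.00361). The calls were 3 higher and 6 lower without *set-2* replicate 2, 4 and 3 without *set-2* replicate 1, 12 and 3 without wild-type replicate 1, 3 and 3 without wild-type replicate 2, and 2 and 2 without wild-type replicate 3.

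Chemoreceptor genes were called higher more often than lower, and so were synaptic genes, though at a share near that of genes of low level. Of 143 chemoreceptors, 32 were higher and 8 lower (median 0.33), and 5 of the 32 passed the count filter only through the *set-2* libraries. *str-16* had 54.1, 56.7 and 60.6 normalized counts in *set-2* and 5.36, 9.48 and 4.17 in wild-type (log2 fold change 3.13, SE 0.37, quasi-likelihood adjusted p = 0.000459), and *str-148* had 304, 343 and 315 in *set-2* and 112, 136 and 132 in wild-type (log2 fold change 1.33, SE 0.16, quasi-likelihood adjusted p = 0.00047). *srg-34* fell (-2.32 ± 0.39, adjusted p = 0.00376), lowest in replicate 2. Chemoreceptors are a large family of similar genes, so reads may be split between relatives. Of 25 synaptic genes, 4 were higher (16%), near the 15.4% of all genes in the 2 lowest groups of level. Of these 4, *rab-3* passed the count filter only through the *set-2* libraries, and the other 24 members tested had 3 higher. Among the 4 was *cat-2*, the tyrosine hydroxylase of dopamine synthesis, with 118, 128 and 149 in *set-2* and 36.4, 30.3 and 53.1 in wild-type (log2 fold change 1.72, SE 0.25, quasi-likelihood adjusted p = 0.0016). *flp-18*, an RFamide neuropeptide gene, had 43.8, 53.6 and 66.6 in *set-2* against 4.28, 11.4 and 8.34 in wild-type (log2 fold change 2.74, SE 0.44, quasi-likelihood adjusted p = 0.00292), one of 4 neuropeptide and insulin genes of 42 that rose (9.52%), while 3 fell (7.14%), close to the 7.4% and 7.04% over all genes tested. Chemoreceptor calls numbered 18 higher and 2 lower without *set-2* replicate 1, 26 and 5 without *set-2* replicate 2, 27 and 4 without wild-type replicate 1, 21 and 3 without wild-type replicate 2, and 18 and 3 without wild-type replicate 3. Only 1 synaptic gene was called without wild-type replicate 2 or 3. The neuropeptide and insulin genes had 3 higher and 0 lower calls without *set-2* replicate 1 or wild-type replicate 3, 3 and 2 without *set-2* replicate 2, and 2 and 1 without wild-type replicate 2.

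Lectins, lysozymes and other immune effectors (57 tested, median 0.42, or 0.27 without *set-2* replicate 2) had 9 members higher and 3 lower. Of the 9, *spp-13* and *spp-22* passed the count filter only through the *set-2* libraries. The 52 members that passed it in the other libraries had 7 higher and a median of 0.304. *clec-180*, a C-type lectin, had 105, 137 and 94.6 normalized counts in *set-2* and 24.6, 10.4 and 16.7 in wild-type (log2 fold change 2.70, SE 0.33, quasi-likelihood adjusted p = 0.000552), and *clec-73* fell (-2.71 ± 0.44, adjusted p = 0.00287). Of 16 intestine genes 3 were higher, led by the aspartic protease *asp-1* with 32.6, 75.7 and 20.4 in *set-2* against 3.21, 5.69 and 2.08 in wild-type (log2 fold change 3.47, SE 0.59, quasi-likelihood adjusted p = 0.00376). These 3 calls were 18.8% of the intestine list, against 7.4% of all genes tested and 15.4% in the 2 lowest groups of level. The *asp-1* call held with any single library left out, whereas those of *asp-3* and *ifb-2* were lost without *set-2* replicate 1 or 2 and without wild-type replicate 2 or 3, and that of *asp-3* also without wild-type replicate 1. Of 109 detoxification genes, 12 were higher and 7 lower (median -0.02), with *cyp-13A2* (2.48 ± 0.31, adjusted p = 0.000648) and *cyp-13B1* (-1.26 ± 0.23, adjusted p = 0.00514), both cytochrome P450 genes, on opposite sides. Immune effector calls fell to 4 higher and 2 lower without wild-type replicate 2, to 5 and 1 without *set-2* replicate 1 or wild-type replicate 3, and to 5 and 2 without *set-2* replicate 2 or 3. The 12 and 7 detoxification calls were 11% and 6.42% of the list, against 7.4% and 7.04% of all genes tested. Of the 12, 2 passed the count filter only through the *set-2* libraries. Detoxification calls were 3 and 4 without wild-type replicate 3, 6 and 5 without *set-2* replicate 1, and 10 and 4 without wild-type replicate 2.

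**Figure D4:**
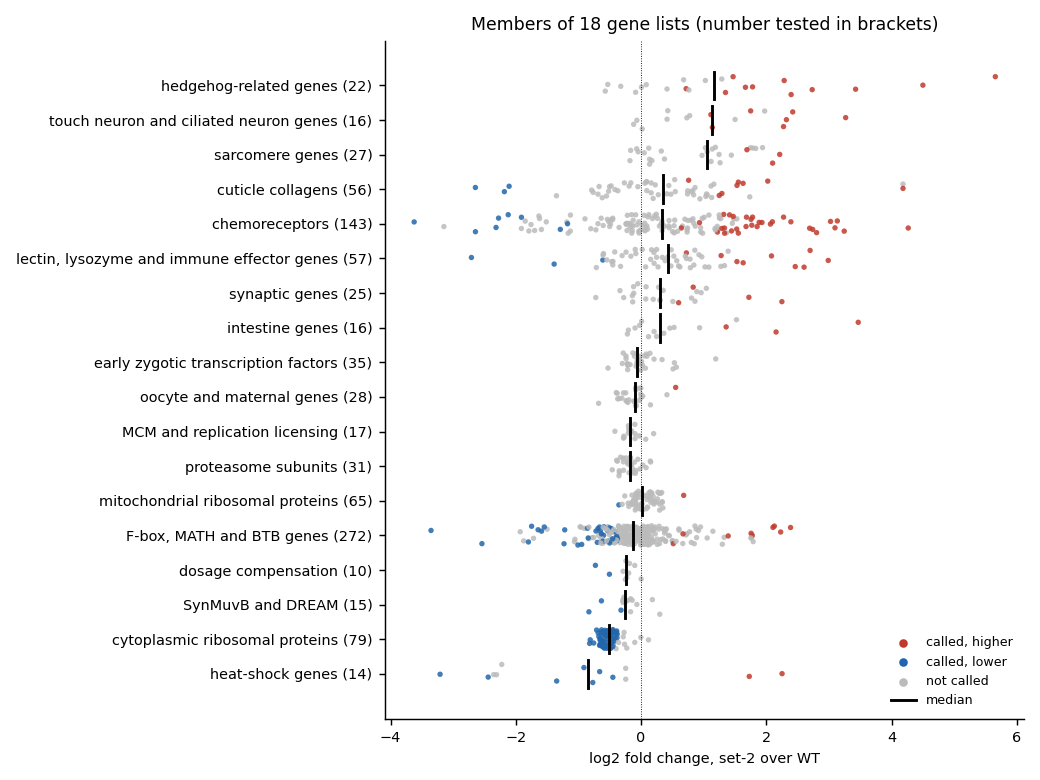
Log2 fold changes of *set-2* over wild-type for the members of 18 gene lists, 1 point per gene tested, with the median of each list as a line. Genes with 3 counts or fewer in each wild-type library are drawn at their fitted value, which is not a bound. Hedgehog-related genes (median 1.16) lie to the right, the 79 cytoplasmic ribosomal proteins form a tight group at -0.52, and early zygotic transcription factors and maternal genes lie near 0.

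Most lists of genes of the programmes that run in the early embryo itself had few calls, where 14.4% of all genes tested were called. Of 35 early zygotic transcription factors none was called (median -0.06), and of 28 oocyte and maternal genes only *egg-3*, which acts in the transition from oocyte to embryo, was called, with 2206, 2269.9 and 2636 normalized counts in *set-2* and 1487, 1656 and 1709.9 in wild-type (log2 fold change 0.55, SE 0.10, quasi-likelihood adjusted p = 0.00576). Of 27 genes of the Wnt and Notch pathways 1 was lower, *mom-4* (-0.39 ± 0.09, adjusted p = 0.0189), which was lost without *set-2* replicate 1 or wild-type replicate 3. The 15 zygote polarity genes had no call (median -0.14). Cyclins and mitotic kinases had 1 of 33 higher and 3 lower, with *cyd-1*, the D-type cyclin, at 3571, 4579 and 4012 in *set-2* and 6060.3, 5174 and 5936 in wild-type (log2 fold change -0.50, SE 0.11, quasi-likelihood adjusted p = 0.0111), a call lost without *set-2* replicate 1 or wild-type replicate 3, when no member was lower, while 5 were lower without *set-2* replicate 2. Transcripts known to depend on the endoderm and mesoderm factor SKN-1 had 2 of 30 higher and 1 lower, with *sdz-6* at 93.6, 77.8 and 96.2 in *set-2* and 27.8, 22.7 and 24 in wild-type (log2 fold change 1.84, SE 0.24, quasi-likelihood adjusted p = 0.000769). The other higher call of that list was lost with any single library left out. The called shares of the SKN-1 list and of cyclins and mitotic kinases lay nearer to the 14.4% of all genes tested.

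Several regulators of chromatin were lower by less than 2-fold. Of synMuvB and DREAM genes 3 of 15 were called lower, and of dosage compensation genes 2 of 10, or 20% of each list, and none higher. All members of these 2 lists lay in the 3 highest groups of level, where 6.76%, 8.36% and 11.3% of all genes tested were lower. Whether 20% exceeds these shares was not tested. *lin-13*, a zinc finger protein of the synMuvB class that represses germline genes in the soma, had 9764, 13685 and 11251 normalized counts in *set-2* and 22996, 16539 and 22291 in wild-type (log2 fold change -0.83, SE 0.17, quasi-likelihood adjusted p = 0.00892). *sdc-2*, which brings the dosage compensation complex to the X chromosomes, had 7527, 8422 and 7605 in *set-2* and 14612, 11218 and 13226 in wild-type (log2 fold change -0.73, SE 0.12, quasi-likelihood adjusted p = 0.00321). Both were separate between the groups and held with any single library left out. *lin-15B* and *lin-9* of the synMuvB list had log2 fold changes of -0.63 and -0.32, and *dpy-27* of dosage compensation -0.51. Of 18 other histone methylation genes 3 were lower, *mes-4* for H3K36 (-0.47), *set-25* for H3K9 (-0.57) and *mes-3* of the H3K27 complex (-0.52). These 6 calls were lost without *set-2* replicate 1 and without wild-type replicate 3, and all except that of *lin-15B* also without wild-type replicate 1. The *lin-9* and *dpy-27* calls were further lost without *set-2* replicate 3, and the last 3 without *set-2* replicate 2 or wild-type replicate 2. Without *set-2* replicate 2, 5 synMuvB and DREAM genes and 5 dosage compensation genes were lower. The histone list had 1 of 39 higher and 2 lower (none was lower without *set-2* replicate 1 or wild-type replicate 2 or 3), and since most histone genes are near-identical copies and their mRNA lacks a poly(A) tail, its values are uncertain.

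Of 35 P granule and Argonaute genes, 2 were higher (5.71%) and 7 lower (20%), where 7.4% and 7.04% of all genes tested were. The median of the list was -0.12. *sago-1*, an Argonaute of secondary small RNAs, had 1097, 1442 and 1167 normalized counts in *set-2* and 1971, 2067 and 2176 in wild-type (log2 fold change -0.75, SE 0.13, quasi-likelihood adjusted p = 0.00366). *meg-3*, a scaffold of P granules, had 3773, 3556 and 4465 in *set-2* against 5829, 5901 and 6948 in wild-type (log2 fold change -0.66, SE 0.13, quasi-likelihood adjusted p = 0.0086). The Argonaute gene *vsra-1* rose (0.71 ± 0.12, adjusted p = 0.00421). *alg-4*, an Argonaute that acts in spermatogenesis, had 2.58, 2.1 and 5.3 in *set-2* against 23.6, 24.6 and 30.2 in wild-type (log2 fold change -2.88, SE 0.39, quasi-likelihood adjusted p = 0.00103). Of 21 sperm genes tested, 5 fell (23.8%) and 2 rose (9.52%), beside 7.04% and 7.4% of all genes tested (median of the list -0.03). *msrp-2* had 2.58, 4.2 and 8.33 in *set-2* and 73.9, 171 and 165 in wild-type (log2 fold change -4.69, SE 0.46, quasi-likelihood adjusted p = 0.000109), and *spe-47* had 19.7, 26.3 and 31.8 in *set-2* and 103.9, 78.7 and 91.7 in wild-type (log2 fold change -1.81, SE 0.29, quasi-likelihood adjusted p = 0.00266). *nspd-7*, one of a family of near-identical copies and so uncertain, changed by -4.09. *spe-15*, a myosin VI, rose (0.81 ± 0.14, adjusted p = 0.00407). *ant-1.3* and *ant-1.4*, neighbouring genes for the mitochondrial ADP/ATP carrier that resemble each other, were lower (-2.47 ± 0.46, adjusted p = 0.00546 and -2.67 ± 0.50, adjusted p = 0.00564), in *set-2* replicate 2 most of all. P granule and Argonaute genes lower in the mutant numbered 3 without *set-2* replicate 1 and 2 without wild-type replicate 3.

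F-box, MATH and BTB genes, a fast-evolving family of adaptors for protein turnover, had 9 of 272 members higher (3.31%) and 35 lower (12.9%), with a median of -0.13. Over all genes tested these shares were 7.4% and 7.04%. In the 2 lowest groups of level 6.2% of 129 members were lower, against 4.37% of all genes there. Of the 9 that rose, 2 passed the count filter only through the *set-2* libraries. *fbxa-192* had 55.8, 86.2 and 59.1 normalized counts in *set-2* and 643, 736 and 670.0 in wild-type (log2 fold change -3.35, SE 0.21, quasi-likelihood adjusted p = 3.11e-06), and *fbxa-107* had 92.7, 87.2 and 96.2 in *set-2* against 451, 602 and 557 in wild-type (log2 fold change -2.54, SE 0.17, quasi-likelihood adjusted p = 3.77e-06). *fbxa-172* moved the other way (2.23 ± 0.24, adjusted p = 0.000276). Members of this family resemble each other, so single values may hold reads of relatives. The lower count was 18 without *set-2* replicate 1, 17 without wild-type replicate 2 and 17 without wild-type replicate 3, and 18 with upper-quartile scaling, where 11 were higher. Without wild-type replicate 3 the higher count was 4.

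Metabolic genes changed singly. In the respiratory chain, 2 of 50 genes were higher, *ucr-2.2* of complex III with 1309, 1409 and 1322 normalized counts in *set-2* and 671, 671 and 647 in wild-type (log2 fold change 1.02, SE 0.10, quasi-likelihood adjusted p = 8.19e-05) and *sdha-1*, a subunit of succinate dehydrogenase, with 2772, 3186 and 3247 in *set-2* and 1757, 1667 and 1969 in wild-type (log2 fold change 0.77, SE 0.12, quasi-likelihood adjusted p = 0.00272). *ucr-2.3*, a paralogue of *ucr-2.2*, was lower (-0.88 ± 0.14, adjusted p = 0.00306), as was *asb-2* of the ATP synthase (-0.40 ± 0.09, adjusted p = 0.0162). The *asb-2* call was lost without *set-2* replicate 1 or wild-type replicate 2 or 3. Without *set-2* replicate 2, 4 genes of this list were higher, and with upper-quartile scaling 7 were. None of 18 fatty acid synthesis genes was called. Of 52 fatty acid oxidation genes 1 was higher and 4 lower, with *cpt-1*, a carnitine palmitoyltransferase that passes fatty acids into mitochondria, at 14028, 15566 and 15193 in *set-2* and 25032, 21527 and 24947 in wild-type (log2 fold change -0.68, SE 0.11, quasi-likelihood adjusted p = 0.00284). Nuclear hormone receptors had 7 of 170 higher and 14 lower (median -0.05), among them *nhr-47* (0.61 ± 0.11, adjusted p = 0.00419) and *nhr-205* (-1.18 ± 0.26, adjusted p = 0.0111), and with upper-quartile scaling 13 were higher and 6 lower. The 7 higher and 14 lower receptors were 4.12% and 8.24% of the list, against 7.4% and 7.04% of all genes tested. Of those 7, 2 passed the count filter only through the *set-2* libraries. Without wild-type replicate 3 the receptors had 3 of each, without *set-2* replicate 1 they had 2 higher and 5 lower, without *set-2* replicate 3 they had 7 of each, and without wild-type replicates 1 and 2 in turn they had 12 and 8, and 4 and 6. Fatty acid oxidation genes called lower numbered 2 without *set-2* replicate 1 or 3 or wild-type replicate 1 or 3.

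A set of 18 called genes had 3 raw counts or fewer in each wild-type library, the limit of detection used here, so their change is a lower bound against 3 counts per library. Only 19 of the genes tested were this low in wild-type. Such genes could pass the count filter only through the mutant libraries, which favours a higher call. Several, *wrt-2* among them, passed it only through the *set-2* libraries. *wrt-2*, another warthog gene, had 37, 129 and 12 raw counts in *set-2* and 3, 0 and 0 in wild-type, at least 19.2-fold higher. *lec-5*, a galectin, had 46, 93 and 19 in *set-2* against 3, 3 and 1 in wild-type, at least 16.5-fold higher. *unc-1*, a stomatin-like protein of gap junctions, had 28, 60 and 26 in *set-2* and 1, 1 and 0 in wild-type, at least 11.6-fold higher. These counts were low, and replicate 2 held most of the *wrt-2* counts. Without *set-2* replicate 2 these 3 genes fell below the filter, and the *wrt-2* and *lec-5* calls were lost without wild-type replicate 2 or 3. For the other 15 genes the bounds lay between 2.43-fold for Y54E2A.9 and 10.0-fold for F58H1.2, and *srj-11* had only 2 counts in *set-2* replicate 2. In the opposite direction 4 called genes had 3 counts or fewer in each *set-2* library, led by *oac-4* with 3, 0 and 0 raw counts in *set-2* against 23, 19 and 24 in wild-type, at least 8.46-fold lower. The limit covers counting error only.

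Called genes were not spread evenly over the chromosomes, which the choice of genes did not use. On the X chromosome, 208 of 1551 genes tested (13.4%) were higher and 82 (5.29%) lower, with a median log2 fold change of 0.11. On the autosomes between 4.85% (chromosome III) and 8.55% (chromosome V) were higher and between 6.33% and 7.88% lower, with medians from -0.06 to -0.01. X-linked genes had lower counts than autosomal ones, and the difference was therefore read within the same 5 groups of level. In the lowest group, 24% of X-linked and 15% of autosomal genes were higher, and in the second 21.7% of X-linked and 12.8% of autosomal genes. In the highest group 1.85% of X-linked and 0.887% of autosomal genes were higher, and 10.5% of X-linked and 11.4% of autosomal genes lower. Neighbouring genes are not independent, so these shares are given without a test. The X share depended on single libraries: 9.8% of X-linked genes were higher and 10.1% lower without *set-2* replicate 2 (5.16% and 8.76% of autosomal genes), 6.06% were higher without wild-type replicate 2 (3.67% of autosomal genes) and 4.52% without wild-type replicate 3 (2.63% of autosomal genes). With *set-2* replicate 1 left out, 8.57% of X-linked and 3.71% of autosomal genes were higher.

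**Figure D5:**
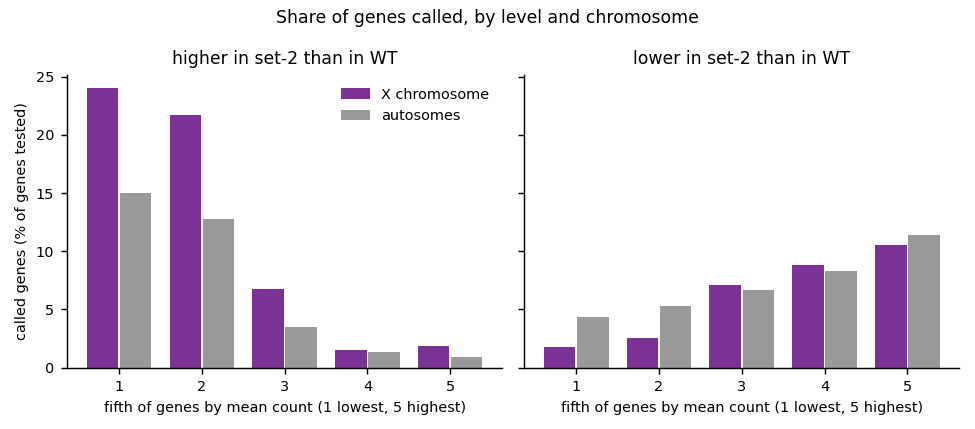
Percent of genes tested that were called higher (left) or lower (right) in *set-2* than in wild-type, by group of mean count (5 equal groups of genes, lowest first), for the X chromosome and the autosomes. The share called higher in the 2 lowest groups was 24% and 21.7% on the X chromosome against 15% and 12.8% on autosomes, and the share called lower grew with level on both.

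Neighbouring genes that changed together were listed as runs of called genes with no uncalled tested gene between them. There were 14 runs of 3 genes and 2 of 4 genes higher in *set-2*, and 5 of 3 genes and 2 of 4 genes lower. On chromosome V from 19282614 to 19293125, *fbxb-117*, F55C9.3, *fbxb-57* and F55C9.5 were all lower. F55C9.3 had 644, 719 and 636 normalized counts in *set-2* and 5050.3, 5035 and 4239.9 in wild-type (log2 fold change -2.84, SE 0.20, quasi-likelihood adjusted p = 6.13e-06), and F55C9.5 had 490.1, 531 and 544 in *set-2* against 4099, 3650.3 and 2845 in wild-type (log2 fold change -2.76, SE 0.18, quasi-likelihood adjusted p = 3.77e-06). Their neighbours *fbxb-117* and *fbxb-57* fell by less (-1.01 and -0.52), and the *fbxb-57* call was lost without *set-2* replicate 1 or 2 and without wild-type replicate 2 or 3. On chromosome III from 9043886 to 9058895, R107.2, *ikke-1*, R107.5 and *cls-2*, a microtubule-binding CLASP protein, were lower with log2 fold changes of -0.76, -0.73, -0.82 and -0.64, the last not without *set-2* replicate 1 or wild-type replicate 3. The chemoreceptors *srh-87*, *srh-248*, *srh-88* and *srw-135* on chromosome V from 2944377 to 3011494 were all higher, all at low counts. The log2 fold changes of *srh-87*, *srh-88* and *srw-135* were 1.22, 2.06 and 1.78, and *srh-248*, with 3, 3 and 2 raw counts in wild-type, was at least 7.96-fold higher. *srh-248* passed the count filter only through the *set-2* libraries, which favours a call in this direction. Calls of *srh-87* were lost without wild-type replicate 1 or 3, and of *srw-135* without *set-2* replicate 3 or wild-type replicate 2 or 3. Another run of this length, *tsp-16*, *tyra-2*, *cest-19* and *ubc-17* on chromosome X, was named after its values were seen, with a median log2 fold change of 1.27. Calls of *tsp-16*, *cest-19* or *ubc-17* were lost without some single libraries, all 3 without wild-type replicate 3.

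The levels in *set-2* embryos were set beside those of the other mutants of the series. *cfp-1* embryos had 3 libraries and *sin-3* embryos 2, and they differed from *set-2* embryos at 2550 (22.1%) and 4694 (40.7%) of the genes tested. For *set-2* against *cfp-1*, 1099 (9.52%) were higher and 1451 (12.6%) lower, and for *set-2* against *sin-3*, 2299 (19.9%) were higher and 2395 (20.7%) lower. The embryo age measure was -3.06 to -3.83 in *cfp-1* and -3.98 and -4.13 in *sin-3*, outside the range of *set-2*. With this measure as a covariate 6 genes were higher and 4 lower in *set-2* than in *cfp-1*, and 1 higher and 0 lower than in *sin-3*, so strain and age measure cannot be told apart in these 2 comparisons. The counts were also sensitive to single libraries, with 491 higher and 761 lower against *cfp-1* without *set-2* replicate 1, 674 and 1208 without *set-2* replicate 2, 273 and 596 without *cfp-1* replicate 3, and, against *sin-3*, 708 and 1359 without *sin-3* replicate 1 and 807 and 1287 without *sin-3* replicate 2. In these last fits the lone *sin-3* library is assumed to vary like the other groups. The following genes were chosen because *set-2* differed from wild-type and from both other mutants, so their values are a description. *lmtr-5* had 567, 518 and 517 normalized counts in *set-2*, against 1584, 1642 and 1642 in *cfp-1*, 1718 and 1599.8 in *sin-3* and 1257, 1685 and 1347 in wild-type. F42A9.6 had 167, 105 and 179 in *set-2*, against 1115, 755 and 847 in *cfp-1*, 1398 and 1317 in *sin-3* and 877, 1164 and 903 in wild-type. In both genes the other mutants lay near wild-type. ZK1010.5 and F19B2.5 had their lowest level in *set-2* replicate 2, at 10.5 and 9.46 normalized counts. *dyf-3*, needed for cilia, had 97.9, 193 and 92.4 in *set-2*, 10.3, 29.9 and 10.9 in *cfp-1*, 2.74 and 7.54 in *sin-3* and 27.8, 36 and 33.3 in wild-type. B0261.8, *ftn-2*, a ferritin, and *nhr-31* were likewise highest in *set-2*, with *ftn-2* at 5391, 5221 and 4766 in *set-2*, 3154, 3289 and 3172 in *cfp-1*, 2624 and 2336 in *sin-3* and 3413, 3601 and 3544 in wild-type.

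For the induced heat-shock genes the other mutants stood above *set-2*. *hsp-70* had 1998, 3821 and 2102 normalized counts in *cfp-1* and 3419 and 2372 in *sin-3*, and log2 fold changes of *set-2* were -2.85 (adjusted p = 0.0139) over *cfp-1* and -2.99 (adjusted p = 0.00756) over *sin-3* by the quasi-likelihood test. For *hsp-16.2* they were -2.43 (adjusted p = 0.0329) and -2.56 (adjusted p = 0.0208). Ribosomal protein genes summed to between 23751 and 25963 CPM in *cfp-1* and to 19742 and 19362 CPM in *sin-3*, so *set-2* lay between these mutants. *mekk-3* lay above wild-type in all mutants, with 1294, 1150.5 and 1307 in *cfp-1* and 1588 and 1711 in *sin-3*, but most in *set-2*. Its log2 fold change in *set-2* was 0.81 (adjusted p = 0.00155) over *cfp-1* and 0.41 (adjusted p = 0.0275) over *sin-3*. C55C3.3 separated the mutants, with 352, 298 and 330.1 in *cfp-1*, near *set-2*, and 34.3 and 25.4 in *sin-3*, near wild-type, and log2 fold changes of *set-2* of 0.54 (adjusted p = 0.0631) over *cfp-1* and 4.01 (adjusted p = 1.63e-05) over *sin-3*. *fbxa-192* was lower still in *cfp-1*, with 8.44, 12 and 11.9 normalized counts, than in *set-2*, and stood at 245 and 197 in *sin-3*. Its log2 fold change in *set-2* was 2.63 (adjusted p = 0.000158) over *cfp-1*.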

How the data were processed

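Polyadenylated RNA was sequenced from wild-type embryos and from *sin-3*, *set-2* and *cfp-1* mutants with a stranded protocol. The authors mapped the reads to *C. elegans* genome release WS254 with STAR 2.4.1d, removed reads of low mapping score with SAMtools 0.1.19 and deposited raw counts per gene made with HTSeq 0.7.2. The strand setting of the counting is not given in the sources used here, and reads of overlapping or antisense genes may therefore not be told apart. The deposited tables of the authors' own DESeq2 1.10.1 comparisons hold fold changes and p-values and were not used.

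Identifiers were matched to the Ensembl annotation of WBcel235, in which 46549 of 46772 were found. The *set-2* and wild-type libraries held between 25911256 and 35258557 counts. Tests were run on protein-coding genes whose normalized counts averaged more than 10 in the 11 libraries, in R 4.3.3 with the quasi-likelihood test of edgeR 4.0.16, after TMM scaling (normalized counts are counts scaled in this way), with 1 mean per strain. Genes with a Benjamini-Hochberg adjusted p under 0.05 were called. In simulated data on 11547 genes, 100 genes were changed by 1 and 100 by 2 on the log2 scale in *set-2*. For *set-2* against wild-type edgeR called 64 and 90 of them, and 5 unchanged genes. The simulation had no library that stood apart and no other difference between strains, so these rates may not hold for the real libraries. DESeq2 1.42.0, other scalings and filters, covariates, replicate blocks and the omission of single libraries were the alternatives.

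The members and gene lists were chosen with earlier results of these data known. Named genes were, among called genes with a mean of at least 50 normalized counts and no overlap between the groups, the 10 with the largest change in each direction, then the 5 with the smallest p, the 5 with the largest difference in CPM and the 5 farthest from both other mutants in each direction, up to 4 called members of each list, all SET1, H3K4 and SIN3 genes, *hsp-16.2* and the members of the 3 longest runs. Other genes were named as uncalled or further members of a list, after their values were seen.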

Additional observations from a re-analysis of the deposited data

Results flagged for a closer look

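Genes that are not protein-coding were outside the comparison above and were tested in a fit over all biotypes. Of 670 such genes, 109 were lower and 39 higher in *set-2* than in wild-type embryos by edgeR's quasi-likelihood test, 81 and 24 of them pseudogenes. That is 16.3% lower and 5.82% higher, where 7.38% of the 12217 genes of this fit were lower and 7.54% higher. Among 42 long intergenic RNAs, 11 were lower and 4 higher. *linc-12* had 629, 677 and 616 normalized counts in *set-2* and 2780, 3255 and 2526 in wild-type (log2 fold change -2.15, SE 0.14, adjusted p = 4.05e-06). *linc-16* had 1125, 1292 and 1122 in *set-2* against 8472, 6594 and 6055 in wild-type (-2.57, SE 0.20, adjusted p = 1.37e-05). In both genes the mutant libraries lay close together, replicate 2 included, and far under wild-type. Reads of a pseudogene and its parent gene may be split between them.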

How the results depend on the processing

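No gene called in *set-2* against wild-type changed sign under any alternative that gave it a value. The calls of 28 of 207 named genes were the same throughout. Genes higher and lower numbered 976 and 1229 with DESeq2, 1225 and 445 with upper-quartile scaling, 668 and 525 with only the compared strains and 275 and 262 at an adjusted p under 0.01. With the replicate block they numbered 862 and 837, and with a replicate block by title number 6 and 19. The replicate numbers were not treated as pairs, and deviations of same-numbered *set-2* and wild-type libraries correlated at -0.113, -0.349 and 0.333. With 3 libraries per strain these values cannot exclude a shared preparation. By title number only 2 pairs of *set-2* and wild-type libraries share a number, with correlations of -0.113 and 0.346, the labels do not say what it marks, and that fit leaves 2 residual degrees of freedom. Whether it marks a batch was not tested. Leaving out single libraries gave between 337 and 1019 higher and between 323 and 1023 lower. Leaving out *set-2* replicate 2 and wild-type replicate 1 together, chosen after seeing the data, gave 799 and 800. For *set-2* against *cfp-1* the numbers were 568 and 698 with only the compared strains, 2 and 2 with the block by title number, 6 and 4 with the age covariate, 255 and 528 at the stricter threshold, and 273 to 1244 higher and 596 to 1690 lower with single libraries left out. Against *sin-3* they were 0 and 0 with that block (1452 genes at an unadjusted p under 0.05 by edgeR, and 2265 and 2615 called by DESeq2 without a block), 1 and 0 with the age covariate (761 at an unadjusted p under 0.05), 961 and 1436 at the stricter threshold, and 708 to 2251 higher and 1287 to 2421 lower with single libraries left out. The causes were not tested.

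Among the genes named, the direction turned for uncalled genes of the SET1, H3K4 and SIN3 lists and for *mec-4*, *daf-19* and *wrt-5*. With upper-quartile scaling the log2 fold change was 0.0012 for *cfp-1*, 0.023 for *swd-2.1*, 0.0083 for *amx-1*, 0.12 for *hda-1*, 0.11 for *suds-3* and 0.043 for *rba-1*. For *hda-1* it was 0.0045 with DESeq2 size factors, 0.0031 with all biotypes and 0.014 with only the compared strains. For *suds-3* it was 0.0036 with only the compared strains, 0.047 with the block by title number, 0.012 with the age covariate and 0.094 without both libraries that stood apart. With single libraries left out it ranged from -0.016 to 0.18 for *dpy-30*, from -0.20 to 0.011 for *swd-2.1*, from -0.16 to 0.11 for *hda-1*, from -0.145 to 0.17 for *suds-3* and from -0.15 to 0.026 for *rba-1*. For *mec-4* it was 0.056 with upper-quartile scaling, 0.084 with the block by title number, 0.0011 with the age covariate and -0.33 to 0.28 with single libraries left out. For *daf-19* it was -0.036 with that block, -0.12 without both libraries that stood apart and -0.106 to 0.147 with single libraries left out, and for *wrt-5* 0.042 with upper-quartile scaling and -0.20 to 0.076 with single libraries left out. The medians of 18 of 44 lists changed sign under at least 1 alternative, and apart from basement membrane genes their medians lay within 0.19 of 0. For genes with 3 counts or fewer in a strain's libraries, depth limits the fold to a bound.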

Other observations

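Of 46 homeobox genes of the *ceh* series tested, 1 was higher and 4 lower in *set-2* (median log2 fold change -0.03), and of 15 T-box genes none was called (median -0.09). Of 15 apoptosis genes, *ced-9*, which restrains cell death, was higher and 3 were lower, *ced-5*, *ced-7* and *ced-12*, which act in the engulfment of dying cells (median of the list 0.05). Those 3 calls were all lost without *set-2* replicate 1 and without wild-type replicate 3. Of 25 meiosis genes only *syp-3*, of the synaptonemal complex, was called higher (median -0.01), a call lost without *set-2* replicate 1 or wild-type replicate 3. The list of mitochondrial carriers had 2 of 4 genes lower (median -1.27), which were *ant-1.3* and *ant-1.4*. Of 6 amino acid transporters 1 was higher (median 0.48, and 0.23 without *set-2* replicate 2), and of 12 basement membrane genes 1 was (median 0.67, and -0.09 without *set-2* replicate 2), and both of these calls were lost without wild-type replicate 2 and without wild-type replicate 3. The first of them, *aat-2*, was also lost without *set-2* replicate 2 or 3, and the second, *fbl-1*, fell under the count filter and was not tested without *set-2* replicate 1 or 2. *fbl-1* passed that filter only through the *set-2* libraries, and none of the other 11 basement membrane genes tested was called.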
